A study of Mus with 4 samples.

Results

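Long unspliced m6A peaks are stretches of a transcript that lie in 1 uninterrupted block on the genome, that cover 600 bases or more, and over which an antibody against m6A recovered more RNA than the input would give. They were selected on measured values, the block number and the block size given for each peak, from 2 deposited peak lists of interscapular brown adipose tissue (iBAT). The *Wtap* flox/flox list held 1468 such peaks among 18400 (7.98%), and the *Wtap*-BKO list held 1043 among 18693 (5.58%), so that 2511 of 37093 listed peaks were long and unspliced. The lengths come from the authors' peak calls, so the lengths, the fold enrichments and the false discovery rates of these peaks are given as a description, without a test.

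The tissue came from 8-week-old C57BL/6 mice on normal chow. Control mice carried the floxed *Wtap* alleles without Cre (*Wtap* flox/flox), and *Wtap*-BKO mice carried the same floxed alleles with an iCre transgene driven from *Ucp1*, a gene of brown adipocytes, so that cells of iBAT that do not express it are not targeted. For each genotype RNA of 8 mice was pooled, and 1 immunoprecipitate (IP) was compared with 1 input, giving 4 sequenced samples with 150 bp reads. Without replicates the variation from mouse to mouse is unknown and nothing could be tested between genotypes. The 95% Wilson intervals given for shares include counting error alone and take peaks as independent. The read totals behind the lists are unknown, and a peak missing from a list says only that no peak passed the authors' threshold there. In bulk tissue, fewer cells of a type and less RNA per cell cannot be told apart. *Wtap* itself carried 4 peaks in each list, the longest unspliced ones of 330 and 360 bases, and none was long. Peaks do not measure transcript levels, so they do not check the genotype.

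N6-methyladenosine is the most common internal modification of mRNA, and it is written in the nucleus by METTL3 and METTL14 with WTAP, which holds the complex together with partners such as RBM15 and VIRMA. The mark is removed by FTO and ALKBH5 and read by YTH proteins, which act on the stability and translation of the marked transcript. It is known to lie in long internal exons and around stop codons, and a run of neighbouring sites can be recovered as 1 wide peak. A wide peak in 1 block therefore needs an exon at least as long, which is common in last exons, in genes with little or no splicing, and in a few giant coding exons.

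Long peaks were more numerous in the control list at most lengths. A minimum of 400 bases gave 3455 unspliced control peaks and 2547 in *Wtap*-BKO, a ratio of 1.36. At 1000 bases the counts were 296 and 214, a ratio of 1.38, and at 2000 bases 10 and 11, a ratio of 0.909. The excess of control peaks was thus seen up to 1500 bases, where 49 faced 42, and the longest peaks of all were in the *Wtap*-BKO list. Within the set, lengths hardly differed. The median was 777 bases in *Wtap* flox/flox (quartiles 661 and 931, longest 3111) and 776 bases in *Wtap*-BKO (quartiles 660 and 957.5, longest 4108). Counted as bases, long peaks held 21.7% of the *Wtap* flox/flox list and 17.2% of the *Wtap*-BKO list.

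**Figure D1:**
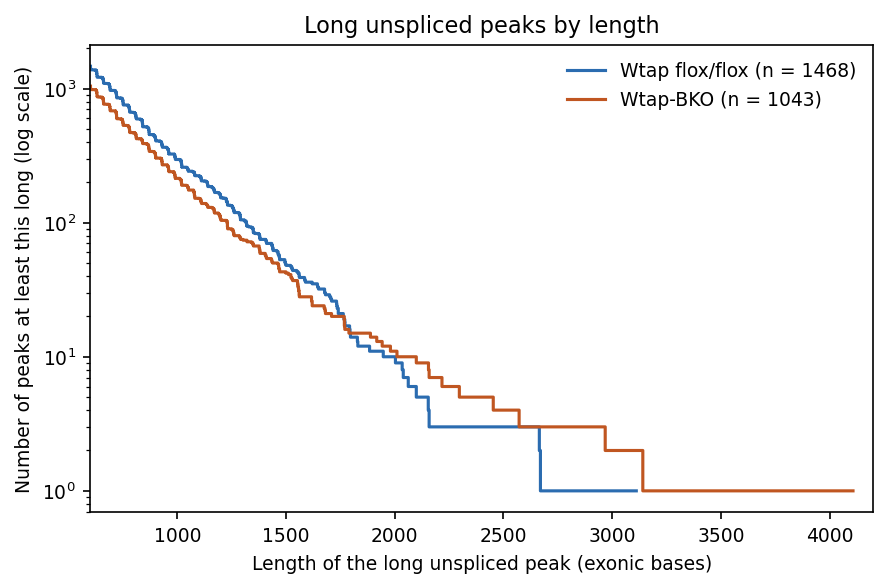
The number of long unspliced peaks (vertical, log scale) that are at least as long as the length on the horizontal axis, in exonic bases, for the *Wtap* flox/flox list (1468 peaks, blue) and the *Wtap*-BKO list (1043 peaks, orange). The control curve lies above up to 1500 bases, where 49 and 42 peaks remain, and the longest peak of each list is 3111 and 4108 bases.

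These were strong calls in their own lists. The fold enrichment, the ratio of IP over input within 1 genotype, had a median of 11.1 over the *Wtap* flox/flox long peaks and 6.21 over its 14092 shorter unspliced peaks. In *Wtap*-BKO the medians were 9.41 over long and 4.47 over the 13947 shorter unspliced peaks. The lists were called separately, so these enrichments share no scale across genotypes. The log10 of the false discovery rate, where a more negative value is a stronger call, had a median of -40.1 in the control list and -33.4 in the *Wtap*-BKO list, against -6.17 and -5.38 for shorter unspliced peaks. A false discovery rate below 1e-05 was reached by 1456 of the *Wtap* flox/flox long peaks (99.2%) and 1029 of the *Wtap*-BKO ones (98.7%). For 49 and 21 of them the rate was given as 0.

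Most long peaks of either genotype had a peak of the other genotype on them, and most were covered only in part. A long peak was called covered whole when each of its bases was shared with peaks of the other list on the same strand, in part when some bases were, and not covered when none was. Of the 1468 *Wtap* flox/flox long peaks, 284 were covered whole by the *Wtap*-BKO list (19.3%, 95% interval 17.4% to 21.5%), against 25.9% of all *Wtap* flox/flox peaks and 25% of the shorter unspliced ones. In part covered were 1126 (76.7%, 74.5% to 78.8%), against 41.9% of all and 37.6% of shorter peaks. The remaining 58 were not covered (3.95%, 3.07% to 5.07%), against 32.2% and 37.4%. Of the 1043 *Wtap*-BKO long peaks, 339 were covered whole by the control list (32.5%, 29.7% to 35.4%), where 32.5% of all *Wtap*-BKO peaks and 36.3% of the shorter unspliced ones were. Covered in part were 695 (66.6%, 63.7% to 69.4%), against 35.5% and 31.1%. The share without cover was 9 of 1043 (0.863%, 0.455% to 1.63%), against 32% and 32.6%. Complete absence from the other list was therefore rare for long peaks of either genotype. The whole-cover share of the *Wtap*-BKO long peaks equalled its background, and that of the *Wtap* flox/flox long peaks lay below its background.

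The classes follow length by construction, since a longer peak has more bases that another peak can share and needs a longer peak to be covered whole. Among *Wtap* flox/flox unspliced peaks, the share without cover was 64.5% under 100 bases, 5.61% at 600 to 699 bases and 1.62% at 1000 to 1499 bases. For *Wtap*-BKO peaks the same classes gave 62.0%, 1.39% and 0 of 172. The fall was gradual, with no step at the threshold. Just outside it, at 570 to 599 bases, 213 *Wtap* flox/flox peaks divided into 46 covered whole, 155 in part and 12 not covered. Just inside, at 600 to 629 bases, 178 divided into 42, 129 and 7. The *Wtap*-BKO list had 154 peaks just outside (64 whole, 88 in part, 2 not covered) and 115 just inside (40, 73 and 2).

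**Figure D2:**
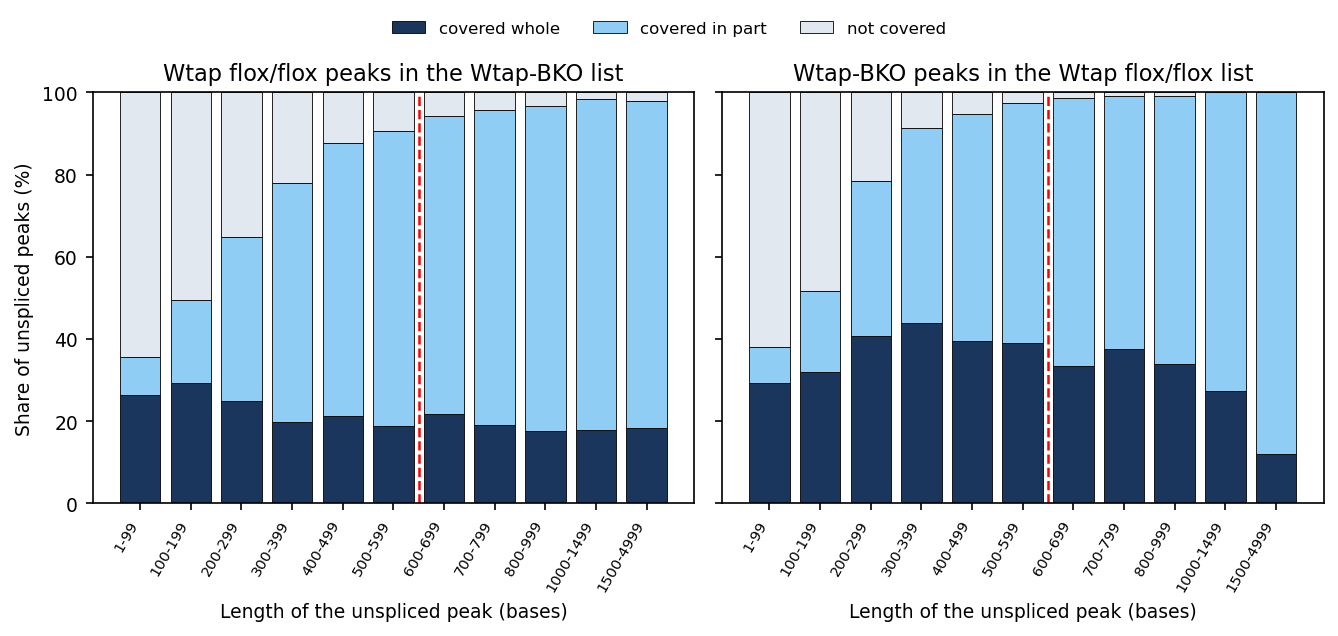
Share of unspliced peaks (vertical, %) that the other list covered whole, in part or not at all, by peak length in bases (horizontal), for *Wtap* flox/flox peaks (left) and *Wtap*-BKO peaks (right). The dashed line marks 600 bases, to the right of which the share without cover is 5.61% or less on the left and 1.39% or less on the right.

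Keeping strong calls does not set length aside, and gave the same order. In the fifth of each list with the smallest false discovery rates, 37 of 968 *Wtap* flox/flox long peaks were not covered (3.82%), against 310 of 2712 other peaks there (11.4%). In *Wtap*-BKO the counts were 0 of 752 long peaks and 94 of 2986 others (3.15%).

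By bases, the *Wtap*-BKO list covered 74.7% of the 1256917 bases of the *Wtap* flox/flox long peaks, and the control list covered 85.0% of the 900919 bases of the *Wtap*-BKO ones. The median control long peak had 83.3% of its bases covered (quartiles 59.0% and 96.0%), and the median *Wtap*-BKO long peak 92.3% (77.1% and 100%). Cover of at least 90% was found for 570 control peaks (38.8%) and 593 *Wtap*-BKO peaks (56.9%). Cover of some but under 50% of the bases was found for 211 (14.4%) and 64 (6.14%). The *Wtap*-BKO long peaks thus lay more fully inside control peaks than the reverse, as did *Wtap*-BKO peaks in general. Of the bases of shorter unspliced peaks, 54.6% in the control and 65.2% in *Wtap*-BKO were covered, and of all peaks 61.4% and 67.7%. Small trims make up part of the middle class, since 125 of the 1126 control peaks covered in part and 112 of the 695 *Wtap*-BKO ones had 30 uncovered bases or fewer. Lengths ran in steps, with 865 control (58.9%) and 637 *Wtap*-BKO lengths (61.1%) within 1 base of a multiple of 30.

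**Figure D3:**
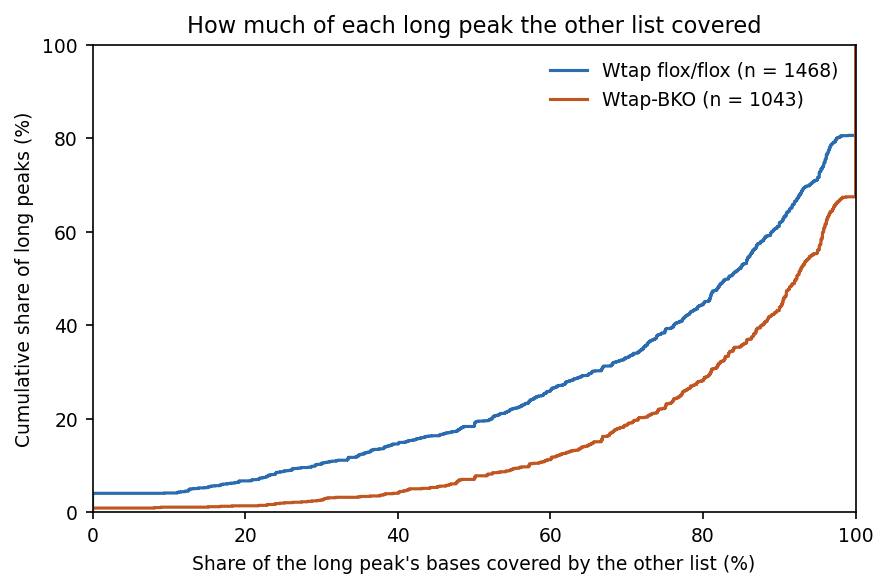
Cumulative share of long unspliced peaks (vertical, %) by the share of their bases that the other list covered (horizontal, %), for 1468 *Wtap* flox/flox peaks (blue) and 1043 *Wtap*-BKO peaks (orange). The curves start at 3.95% and 0.863%, the peaks without cover, and jump at the right edge by 19.3% and 32.5%, the peaks covered whole.

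What lay on a long peak in the other list was often a shorter peak. A long *Wtap*-BKO peak touched 683 of the control long peaks (46.5%), only shorter unspliced peaks touched 646 (44.0%), and a spliced peak, one in several blocks across introns, but no long one touched 81 (5.52%). For the *Wtap*-BKO long peaks the counts were 685 (65.7%), 292 (28%) and 57 (5.47%). More than 1 peak of the other list lay on 330 control long peaks that touched 2 and 60 that touched 3 or more, against 211 and 24 in *Wtap*-BKO. Where 1 long peak faced exactly 1 long peak, 509 pairs could be formed. The control peak was longer in 239 of these, the *Wtap*-BKO peak in 198, and 72 were of equal length, with a median difference of 0 bases (quartiles -60 and 60). These pairs leave out every peak that was shorter than 600 bases or in pieces in the other list, so they say nothing of how much peaks shortened. Identical start and end in both lists was seen for 47 long peaks.

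At the level of genes, 1321 of 9732 genes with a control peak carried a long one (13.6%), and 937 of 9713 did in *Wtap*-BKO (9.65%). Both lists had a long peak on 645 genes, which is 48.8% of the control genes and 68.8% of the *Wtap*-BKO genes. Another 676 genes had one only in *Wtap* flox/flox, and 648 of these still carried some *Wtap*-BKO peak. The 292 genes with one only in *Wtap*-BKO included 290 with some control peak. Most of these genes thus had a peak in both lists, at the same site or elsewhere.

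The longest control peak with a gene name was on *Kat6a*, a histone acetyltransferase, at chr8:22938100-22940769 (GRCm38, plus strand). It spanned 2670 bases with a fold enrichment of 19.5, and 91.0% of them were covered by 2 *Wtap*-BKO long peaks. An unnamed gene, ENSMUSG00000106847, had the longest of all with 3111 bases, 99.0% covered, and its *Wtap*-BKO peak of 3141 bases was the second longest of that list. Next came *Zrsr1*, a U2AF-related splicing factor, with 2665 bases (84.3% covered), *Ssh2*, a cofilin phosphatase, with 2158 bases (93.1%), *Klhdc7a*, a kelch-domain protein, with 2154 bases, and *Ep300*, the histone acetyltransferase p300, with 2099 bases (94.3%). *Klhdc7a* stood apart from the others. Its peak (chr4:139965514-139967667, minus strand) began 359 bases from the gene's start and had a false discovery rate of 0, yet the *Wtap*-BKO list broke it into 4 peaks of 210, 300, 450 and 270 bases that together covered 57.1%. The *Zrsr1* peak shared bases with a control peak on the opposite strand.

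The 58 control long peaks without cover were of ordinary strength for their class, with a median log10 false discovery rate of -37.8 against -40.1 for all control long peaks, while their median fold enrichment was lower, 7.02 against 11.1. Of these, 29 lay on genes that had no *Wtap*-BKO peak at all. The strongest pair, on *Tmem79* (log10 false discovery rate -180) and *Glmp* (-179), occupied the same stretch of chromosome 3 on opposite strands. The peak assigned to *Glmp* began at base 88329037, wholly beyond the 3′ end of the RefSeq *Glmp* gene at 88328631. The *Tmem79* peak lay inside the RefSeq *Tmem79* gene. Whether the authors' counting used strand is not given in the sources used here, and without it reads of such a pair cannot be told apart. Next was *Slc24a3*, a potassium-dependent sodium/calcium exchanger, with 747 bases at chr2:145641241-145641987 (log10 false discovery rate -156), and it had 3 *Wtap*-BKO peaks elsewhere in the gene. *Gpat4*, a glycerol-3-phosphate acyltransferase of triglyceride synthesis, followed with 631 bases at chr8:23173961-23174591 and -128, and it too had 3 *Wtap*-BKO peaks elsewhere. *Slc2a5*, the fructose transporter GLUT5, had its single control peak here, 986 bases at chr4:150143035-150144020 ending 148 bases before the gene's 3′ end, with a fold enrichment of 14.2. No *Wtap*-BKO peak was called anywhere on *Slc2a5*.

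By length, the uncovered control peaks were led by the unnamed gene ENSMUSG00000053214 with 1766 bases, which had a second uncovered long peak of 689 bases and no *Wtap*-BKO peak. An unnamed gene with 1436 bases came next. The longest on named genes were *Tmem246*, a membrane protein, with 1259 bases, then *Ppip5k1*, an inositol pyrophosphate kinase, with 1168 bases, and *Pptc7*, a mitochondrial protein phosphatase, with 1016 bases. None of these 3 had a *Wtap*-BKO peak elsewhere. Among the other uncovered genes, named after their values were seen, were several known from adipose tissue or metabolism. *Pm20d1*, a secreted enzyme that forms N-acyl amino acids, had 838 bases (fold enrichment 7.9, log10 false discovery rate -37.4). *Tshr*, the thyrotropin receptor, had 629 bases (16.7, -15.2). *Npr3*, the clearance receptor of natriuretic peptides, had 691 bases (5.25, -56.9) and kept 2 *Wtap*-BKO peaks elsewhere. The peroxisomal coenzyme A hydrolase *Nudt7* had 688 bases (3.44, -90.3) and 3 *Wtap*-BKO peaks elsewhere.

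Among control long peaks covered in part, those with most uncovered bases had only a short *Wtap*-BKO peak on them. *Slc38a10*, an amino acid transporter, had 1494 bases at chr11:120104438-120105931, of which *Wtap*-BKO peaks of 120 and 151 bases covered 18.1%. *Chdh*, the mitochondrial choline dehydrogenase, had 1316 bases (fold enrichment 10.5, log10 false discovery rate -101), and 1 *Wtap*-BKO peak of 211 bases covered 16.0%. On both genes the stretch seen in *Wtap*-BKO was a fragment of the control peak. *Sh3pxd2a*, a podosome scaffold, had 1230 bases (14.7% covered), and *Ldah*, a lipid droplet hydrolase, had 1167 bases (12.9%).

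The longest control peaks that *Wtap*-BKO covered whole were on *Uaca* (1947 bases), *Jcad* (1796), *S1pr1* (1792), *Kmt5b* (1740) and *Cdh5* (1700). *Jcad*, *S1pr1*, a sphingosine-1-phosphate receptor, and *Cdh5*, VE-cadherin, are known from endothelial cells. The peak on *Cdh5* started at the same base in both lists and ran further in *Wtap*-BKO, to 1789 bases. On *Uaca*, an apoptosome-associated protein, and *Kmt5b*, a histone H4 methyltransferase, *Wtap*-BKO peaks were also the longer ones, with 2155 and 2099 bases. Each of the 284 peaks covered whole was covered by 1 peak alone.

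In *Wtap*-BKO the longest peak was on *Ankrd11*, a chromatin regulator, with 4108 bases at chr8:122892026-122896133, 97.1% of them covered by a control peak of 1170 bases and a spliced control peak of 2879. *Nes*, the intermediate filament nestin, had 2968 bases, 86.9% covered. *Mpeg1*, the macrophage pore-forming protein perforin-2, had 2572 bases at chr19:12461159-12463730, and 4 control peaks of 270, 689, 211 and 748 bases covered 74.6%. *Akap12*, a scaffold of protein kinase A, had 2453 bases (73.2%). The *Mpeg1* peak was thus the mirror image of the *Klhdc7a* peak, unbroken in *Wtap*-BKO and in pieces in the control.

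Only 9 *Wtap*-BKO long peaks had no control cover, and they were weak for their class. Their log10 false discovery rates ran from -15.1 to -3.64 with a median of -6.99, against -33.4 over all *Wtap*-BKO long peaks, although their median fold enrichment was 15.9. *Hfe2*, the BMP co-receptor hemojuvelin, had the longest with 895 bases (log10 false discovery rate -6.99). *Igsf6*, an immunoglobulin-family protein of myeloid cells, had 805 bases (-10). Neither gene had any control peak, while the other 7 did. *Samd9l*, an interferon-induced gene, had the strongest with 750 bases (-15.1). The rest were *Pcdh17*, a protocadherin (719 bases), *Mki67*, the proliferation antigen Ki-67 (690), *Cd276*, the immune checkpoint protein B7-H3 (690), *Cilp*, a matrix protein of cartilage (659), *Tmem176a* (601) and *Zswim9* (601).

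Covered in part, and among those with the largest numbers of uncovered bases, were *Arhgap31*, *Selplg* and *Flrt2*. *Arhgap31*, a GTPase-activating protein of Rac1 and Cdc42, had 2217 bases (54.1% covered). *Selplg*, the leukocyte ligand of P-selectin, had 1341 bases (24.5%, log10 false discovery rate -78.9). *Flrt2*, a guidance receptor, had 1018 bases (8.94%, -7.05). On *Arhgap31* (chr16:38601095-38603311, minus strand) the control peaks had 599, 420 and 181 bases. *Zfp37*, a zinc finger gene, had 983 bases (18.3%, log10 false discovery rate -5.28). The calls on *Flrt2* and *Zfp37* were thus weak beside the median of -33.4 over all *Wtap*-BKO long peaks. *Selplg* and *Mpeg1* are genes of blood-derived cells. Beside them, 14 of 15 macrophage markers had a peak in *Wtap*-BKO and 10 of 15 in *Wtap* flox/flox, with 34 and 18 peaks in all. Over all genes, 9713 had a peak in *Wtap*-BKO and 9732 in *Wtap* flox/flox, with 18693 and 18400 peaks. Among the macrophage markers, *Adgre1* had no peak in either list, and *Mrc1*, *Msr1*, *Ctss* and *Laptm5* had none in the control. The part of this in the result was not tested.

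The longest *Wtap*-BKO peaks covered whole lay on *Ep300* (1980 bases), *Zrsr1* (1767), *Ssh2* (1679), *Pdzd2* (1620) and *Itga6* (1560). *Ep300*, *Zrsr1* and *Ssh2* were among the 6 longest control peaks as well, each longer there. On *Pdzd2*, a PDZ-domain protein, and *Itga6*, integrin α6, 1 control long peak covered the whole.

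**Figure D4:**
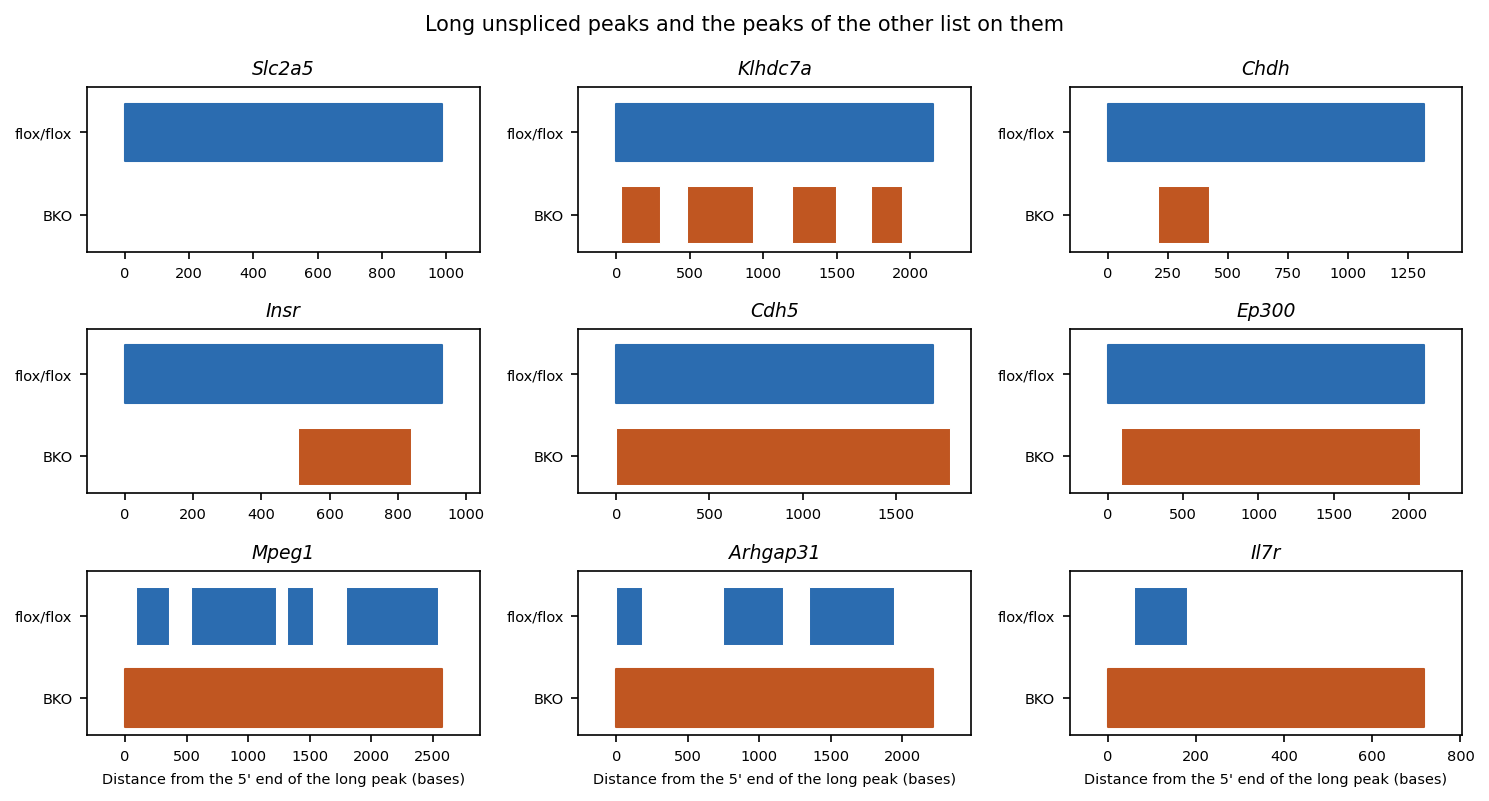
Long unspliced peaks of 9 genes and the peaks of the other list on them, drawn to scale along the transcript strand as distance in bases from the 5′ end of the long peak, with *Wtap* flox/flox peaks in blue and *Wtap*-BKO peaks in orange. *Slc2a5* has no *Wtap*-BKO peak, *Klhdc7a*, *Chdh* and *Insr* are covered in part (57.1%, 16.0% and 35.5%), *Cdh5* is covered whole, *Ep300* to 94.3%, and the *Wtap*-BKO peaks of *Mpeg1*, *Arhgap31* and *Il7r* are covered to 74.6%, 54.1% and 16.7%.

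A gene rarely carried more than 1 long peak, with 1193 control genes holding 1, 114 holding 2 and 14 holding 3 or more, against 845, 82 and 10 in *Wtap*-BKO. *Ahnak*, a giant scaffold protein coded almost wholly by 1 exon, had most in both lists. Its 7 control long peaks, of 720 to 1140 bases, were covered to 85.3%, and its 5 *Wtap*-BKO long peaks, of 870 to 960 bases, to 96%. *Spen*, a transcriptional repressor, had 4 control and 3 *Wtap*-BKO long peaks. *Son*, a nuclear speckle protein, had 3 and 2, and *Phf3*, a PHD finger protein, 3 and 1. *Arhgap35*, a GTPase-activating protein, had 3 control long peaks and 0 in *Wtap*-BKO, where 9 peaks were called on the gene but only 48.7% of the control long bases were covered. In the other direction *Shroom4*, an actin-binding protein, had 4 *Wtap*-BKO long peaks against 2, covered to 66.7%. *Golgb1*, the Golgi protein giantin, had 3 *Wtap*-BKO long peaks covered to 92.8%, and *Tnks1bp1*, a tankyrase-binding protein, 3 covered to 100%, with 2 control long peaks on each gene.

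Genes of brown adipocytes carried more long peaks in the control list, and so did all genes together, with 1321 genes against 937. Of 25 brown adipocyte genes, 25 had a control peak and 24 a *Wtap*-BKO peak, *Elovl3* having none there. These genes held 71 and 63 peaks in all, where all genes held 18400 and 18693. A long peak was found on 7 in the control (28%, where 13.6% of all genes with a peak had one) and on 4 in *Wtap*-BKO (16.7%, where 9.65% did). None of the 7 control long peaks of this list was covered whole, where 19.3% of all control long peaks were. Their median cover was 76.1%, against 83.3% over all control long peaks. *Dio2*, the deiodinase that activates thyroid hormone, had 1319 control bases at chr12:90728598-90729916 with a fold enrichment of 14.7, and *Wtap*-BKO peaks of 150 and 361 bases covered 38.7%. *Ppara*, a nuclear receptor of fatty acid oxidation, had 720 bases with 25.3% cover. *Plin5*, a lipid droplet protein, had 686 bases ending 4 bases before the gene's 3′ end, of which a *Wtap*-BKO peak of 180 bases covered 26.2%. These 3 genes and *Cebpa*, an adipogenic transcription factor with 749 bases and 76.1% cover, had no long peak in *Wtap*-BKO.

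*Adipoq*, *Cebpb* and *Kcnk3* had a long peak in both. *Adipoq*, which codes for adiponectin, had 735 control and 677 *Wtap*-BKO bases, covered to 88.0% and 95.6%. For *Cebpb*, an intronless adipogenic transcription factor, the control peak had 1357 bases and the long *Wtap*-BKO peak 856. Of the control bases 91.4% were still covered, because a further *Wtap*-BKO peak lay on the control peak. In each list the long peak on *Cebpb* shared bases with a peak on the opposite strand. *Kcnk3*, a potassium channel enriched in brown fat, had 1077 and 927 bases. On each of the 3 genes the *Wtap*-BKO peak was the shorter one. Over all 621 named genes with a long peak in both lists, the longest *Wtap*-BKO peak was shorter on 307 and longer on 248. *Prdm16* was the exception in the brown adipocyte list. This coregulator of brown fat identity had a long peak of 1230 bases in *Wtap*-BKO alone, covered to 75.8% by 3 control peaks. It was the only *Wtap*-BKO peak on the gene, which carried 8 peaks in the control, the longest unspliced one of 481 bases.

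Marker lists of other cell types had long peaks on 0 to 3 genes each. Of macrophage genes with a peak, 10% had a long one in the control and 14.3% in *Wtap*-BKO. For lymphocyte genes the shares were 0% and 22.2%, for fibroblast genes 9.09% and 27.3%, and for endothelial genes 42.9% and 28.6%. Over all genes with a peak they were 13.6% and 9.65%. A peak of any kind was called on 9732 genes in the control and 9713 in *Wtap*-BKO, 18400 and 18693 peaks in all. Macrophage markers had a long peak on 1 gene in the control (*C1qb*, 618 bases, covered whole) and on 2 in *Wtap*-BKO (*C1qb*, 735 bases, and the receptor kinase *Mertk*, 868 bases, 51.7% covered). T and B lymphocyte markers had 0 in the control and 2 in *Wtap*-BKO. These were the interleukin 7 receptor *Il7r*, with 718 bases and 16.7% cover, and the transcription factor *Ikzf1*, with 660 bases and 40.9%. Their log10 false discovery rates were weak for the class, -8.17 and -5.71, against a median of -33.4 over all *Wtap*-BKO long peaks. Peaks of any kind were found on 5 of the 16 lymphocyte markers in the control and 9 in *Wtap*-BKO, 8 and 15 peaks in all, and *Cd3e*, *Cd3d*, *Ms4a1*, *Cd79a*, *Pax5* and *Bach2* were among those with none in either. Fibroblast markers had 1 (*Pdgfrb*) and 3 (*Pdgfrb*, *Pdgfra*, *Fbn1*), with a peak of some kind on 11 of 12 in each list but 19 and 26 peaks in all. *Pdgfra*, a growth factor receptor, had 629 *Wtap*-BKO bases (81.1% covered), and *Fbn1*, the matrix protein fibrillin 1, had 600 (75.2%). Endothelial markers had 3 (*Cdh5*, *Kdr*, *Eng*) and 2 (*Cdh5*, *Eng*). Each of the 3 control peaks was covered whole, where 19.3% of all control long peaks were. *Kdr*, the VEGF receptor 2, missed the rule in *Wtap*-BKO only because its peak of 871 bases there was spliced. *Eng*, endoglin, had 690 bases with the same ends in both. Skeletal muscle markers had no long peak in either list, while 4 of 13 had some peak in the control and 9 in *Wtap*-BKO, with *Neb*, *Ckm*, *Ryr1* and *Nrap* at none in both. What the makeup of the tissue contributes to these counts was not tested.

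In the insulin pathway, 4 of 19 genes with a control peak had a long one (21.1%), and 2 of 18 in *Wtap*-BKO (11.1%), where 13.6% and 9.65% of all genes did. None of the 4 was covered whole, against 19.3% of all control long peaks. *Insr*, the insulin receptor, had 929 control bases at chr8:3153553-3154481 (fold enrichment 7.73, log10 false discovery rate -87.1), and 1 *Wtap*-BKO peak of 330 bases covered 35.5%. *Rictor*, the defining subunit of the mTORC2 kinase, had 1020 bases (76.6% covered) and no long *Wtap*-BKO peak. *Irs2*, an insulin receptor substrate, had 870 bases in the control and 750 in *Wtap*-BKO, and *Pik3r1*, the regulatory subunit of PI3 kinase, 991 and 751. Both *Wtap*-BKO peaks lay wholly inside the control ones. On both shared genes the control peak was the longer one. Over all 621 named genes with a long peak in both lists it was so on 307, and the *Wtap*-BKO peak was longer on 248.

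Transcripts of the m6A machinery carried long peaks themselves, 5 in the control and 3 in *Wtap*-BKO, among 14 and 13 genes with a peak, where 13.6% and 9.65% of all genes did. The writer adaptors *Rbm15* and *Rbm15b* had 1109 and 837 bases in the control and 989 and 838 in *Wtap*-BKO. *Ythdf1*, a cytoplasmic reader, had 1434 and 1016 bases. *Cbll1*, the writer subunit HAKAI, with 987 bases, and *Alkbh5*, an eraser, with 630 bases, had a long peak only in the control, covered to 79.0% and 85.9%. The *Cbll1* peak shared bases with a control peak on the opposite strand. *Mettl3* and *Mettl14* had no peak in either list. Of the 3 shared genes, *Rbm15b* was the one whose peak was not longer in the control. Of all 621 named genes with a long peak in both lists, 307 had the longer one in the control and 248 in *Wtap*-BKO.

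Suppressors of cytokine signalling, which restrain JAK-STAT signals, had a long peak on 4 of 7 genes in the control and on 1 of 8 in *Wtap*-BKO, where 13.6% and 9.65% of all genes with a peak did. *Cish* had 900 control bases at chr9:107300445-107301344 (log10 false discovery rate -120), and a *Wtap*-BKO peak of 211 bases covered 23.4%. The long peak on *Cish* shared bases with a control peak on the opposite strand. *Socs4* had 659 bases (73.0% covered) and *Socs6* 1287 (79.2%), both without a long *Wtap*-BKO peak. *Socs5* was the exception, with 838 bases in the control and 2 long peaks of 628 and 987 bases in *Wtap*-BKO.

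Transcriptional coregulators and chromatin regulators, many with large exons, were rich in long peaks in both lists. Of 15 coregulator genes, 8 had a long control peak and 9 a long *Wtap*-BKO peak, beside 13.6% and 9.65% of all genes. None of the 9 control peaks was covered whole, while 8 of the 10 *Wtap*-BKO peaks were, beside 19.3% and 32.5% of all long peaks. On each of the 8 shared genes the longest control peak was longer than the longest *Wtap*-BKO one. Over all 621 named genes with a long peak in both lists it was longer on 307 and shorter on 248. The nuclear receptor coactivators *Ncoa1*, *Ncoa2* and *Ncoa6* had 810, 780 and 1140 control bases against 660, 631 and 810. The coregulator *Nrip1* had 870 and 810 bases, and the acetyltransferase *Crebbp* had 1289 and 1229. *Ppargc1b*, which drives mitochondrial genes, had 961 bases in the control with 31.3% cover, and its *Wtap*-BKO peak of 721 bases lay elsewhere, inside a spliced control peak.

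Of 21 chromatin regulators, 20 had a peak in each list, and 14 had a long one in the control (70%) and 12 in *Wtap*-BKO (60%), beside 13.6% and 9.65% of all genes. In the control alone were *Ash1l*, *Asxl2*, *Ehmt1*, *Kmt2d*, *Setd1b* and *Setd2*. *Setd1b*, a histone H3 lysine 4 methyltransferase, had 1199 bases with the low cover of 42.5%, and *Kmt2d*, another, had 3 long peaks of 631, 931 and 631 bases. *Kmt2a*, *Kmt2c*, *Setd1a* and *Chd7* had one in *Wtap*-BKO alone, of 600 to 720 bases, just above the threshold. Among those in the control alone, *Ehmt1* (630 bases), *Setd2* (660) and *Ash1l* (690) were as near to it, while *Asxl2* had 1290. *Tet3*, a DNA demethylase, showed how alike shared peaks could be, with 1289 and 1260 bases that shared 1 end.

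Immediate early and stress genes, which have few exons, gave much alike long peaks. A long peak was found on 12 of 19 in the control and 11 in *Wtap*-BKO, with 11 in common, beside 13.6% and 9.65% of all genes. The median cover of the 13 control peaks was 100%, with 7 covered whole beside 19.3% of all control long peaks, and that of the 14 *Wtap*-BKO peaks 95.8%. *Jun*, the intronless transcription factor, had a peak of 835 bases with the same ends in both lists, and so had *Myc* with 717 bases. A second long peak on *Jun* had 954 bases in the control, 84.5% of them covered, and 656 bases in *Wtap*-BKO. In each list this second peak shared bases with a peak on the opposite strand. For *Egr1*, a zinc finger factor induced by growth signals, the peak had 1555 control and 1675 *Wtap*-BKO bases. *Atf3*, a stress-induced factor, had 808 and 1347 bases, and *Dusp1*, a MAP kinase phosphatase, 600 and 720. *Nr4a1*, an orphan nuclear receptor, had 600 bases in the control and 540 in *Wtap*-BKO, so only the threshold set it apart. Of the 11 shared genes, the longest peak was longer in *Wtap*-BKO on 6, longer in the control on 3 and equal on 2. Over all 621 named genes with a long peak in both lists, the control peak was longer on 307, the *Wtap*-BKO peak on 248, and 66 were equal. Whether this list differs from others was not tested.

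**Figure D5:**
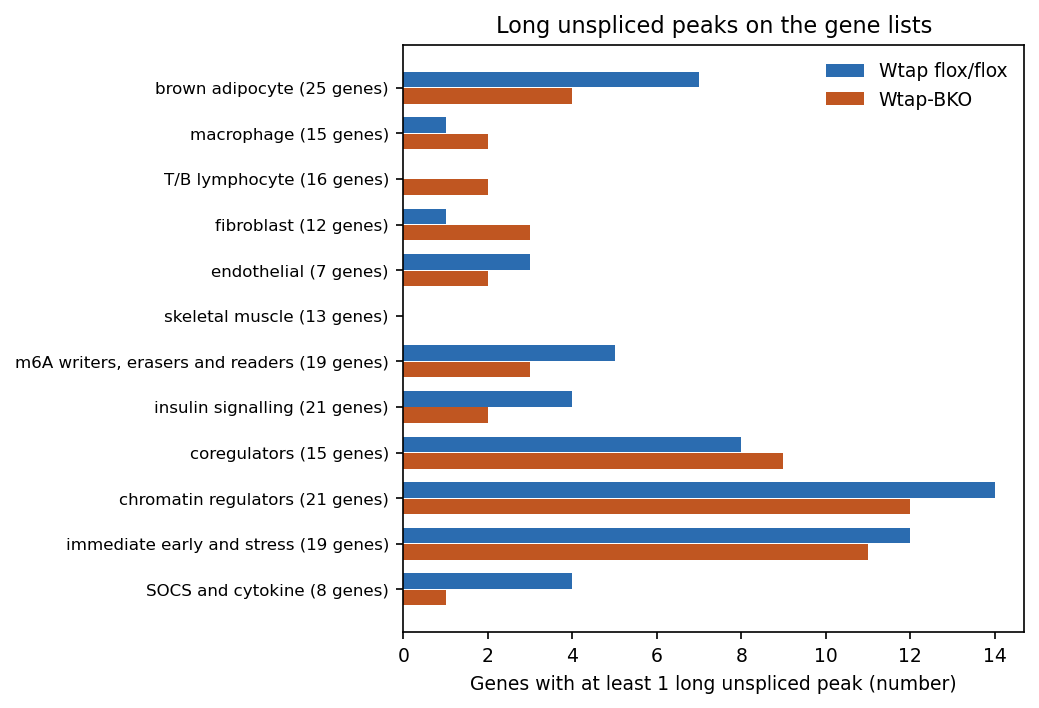
Number of genes with at least 1 long unspliced peak (horizontal) in each gene list (vertical, with the size of the list), for *Wtap* flox/flox (blue) and *Wtap*-BKO (orange). Brown adipocyte genes show 7 and 4, suppressors of cytokine signalling 4 and 1, lymphocyte markers 0 and 2, and skeletal muscle markers 0 in both.

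Long peaks, like shorter ones, lay mostly towards the 3′ end of their genes and were rarer at the 5′ end, counting only genes of 3000 bp or more whose symbol and chromosome matched 1 entry of the RefSeq gene table of GRCm38.p6. The last 10% of the gene's span held 48.4% of the control long peaks and 46.3% of the shorter unspliced ones, and 49.8% and 45.8% in *Wtap*-BKO. The first 10% held 3.23% and 11.6% in the control. The median distance to the 3′ end was 2726 bp for long and 2838 bp for shorter control peaks. The middle of the peak was within 1000 bp of the gene's 3′ end for 236 of 1268 control long peaks (18.6%, 16.6% to 20.9%) and for 24.0% of the shorter unspliced peaks. In *Wtap*-BKO it was so for 153 of 925 (16.5%, 14.3% to 19.1%), against 22.8%. Within 1000 bp of the 5′ end lay 27 control long peaks (2.13%) and 17 *Wtap*-BKO ones (1.84%), against 10.02% and 10.9% of shorter peaks. The middle of a long peak lies further from any end by its own length, so these windows are not equal for long and short peaks. Long peaks reached to within 100 bp of the 3′ end in 6.23% and 5.51%, against 5.20% and 4.44% for shorter ones. The next count also took genes under 3000 bp. Of long peaks inside their gene, 21 of 1339 in the control and 5 of 967 in *Wtap*-BKO covered at least 50% of the gene's span. *Cebpb*, whose control peak took 1357 of 1518 bp, was among the 21. The exon, UTR or codon position of the peaks needs a transcript annotation and was not analysed here.

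By the protein domains named in the deposited gene descriptions, the share of genes with a long peak varied widely, and the words were counted without a test. Of genes with a control peak whose description names a bromodomain, 31.6% had a long one, and of those with a C2H2 zinc finger 20.7%, where 13.6% of all genes did. In *Wtap*-BKO the shares were 25.6% and 14.1%, where 9.65% did. Domains outside transcription control had high shares too, with 26.5% and 14.3% for cadherins, 21.4% and 20.5% for fibronectin type III and 17.6% and 15.1% for protein kinases. Ribosomal proteins were low, with 6.92% and 4.31%. Descriptions with the word mitochondrial were found for 119 genes with a control peak, 7 of which had a long peak, and for 104 genes with a *Wtap*-BKO peak, of which 0 had. Named after their values were seen, these 7 were *Ucp3*, a mitochondrial carrier related to *Ucp1* (1106 bases, 59.5% covered), the carriers *Slc25a11* (628 bases, 19.1%), *Slc25a48* (627, 47.7%) and *Slc25a51* (719, 29.2%), *Mrps27*, a mitoribosome subunit (718, not covered), *Trmt10c*, a mitochondrial tRNA methyltransferase (773, 61.7%), and *Pxmp4*, a peroxisomal membrane protein (660, 45.5%). *Slc25a11* had a log10 false discovery rate of -306, and *Slc25a51* a rate given as 0. Each of the 7 was covered below the median of 83.3% over all control long peaks.

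Zinc finger genes with a Krueppel-associated box, a repressor domain whose genes often end in 1 long exon, were counted as well. A long peak was found on 27 of 206 such genes with a control peak (13.1%) and on 11 of 201 with a *Wtap*-BKO peak (5.47%). The control share was close to the 13.6% of all genes, and the *Wtap*-BKO share was below the 9.65% of all genes, a difference that was not tested. Of the 27 control peaks 1 was covered whole, on *Zfp715* (690 bases), where 19.3% of all control long peaks were. Named after their values were seen, the genes with a long peak in both lists went either way. *Zfp871* had 1166 bases in the control and 748 in *Wtap*-BKO, *Zfp948* had 950 and 624, and *Zfp809* had 838 and 778. Longer in *Wtap*-BKO were *Zfp26* (600 and 930), *Zfp715* (690 and 720) and *Zfp182* (628 and 687). *Zfp263* had 600 bases in both. These genes have many near-identical relatives, and how the authors assigned reads that match several of them is not given in the sources used here.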

How the data were processed

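Each genotype had 1 pooled IP and 1 pooled input, and the authors deposited 1 peak list per genotype. The paper's methods name MACS2 for peaks and HOMER for motifs, while the spliced-block layout of the lists is that of exomePeak. Which of the callers was used is not known. The submitters' processing notes name fastp 0.19.11, BWA 0.7.12, HOMER 4.9.1 and GRCm38.p6. A p-value for each peak was deposited in the score column. Beside it the authors gave scores on a log10 scale for that p-value and for the false discovery rate, which they limited to 0.05. The deposited fold enrichment divides IP by input of the same genotype (a ratio), with a scaling not given in the sources used here. Depth is unknown.

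Members were the peaks with a block count of 1 and a block size of 600 or more. Bases shared with the union of all peaks of the other list on the same strand were counted with numpy 2.4.6 and scipy 1.17.1 under Python 3.11.15. Plots used matplotlib 3.10.9. No column of per-sample values was left unused (0). With 1 pooled sample per genotype no test was made. Members, gene lists and domain words were chosen with earlier results of these data known. Named were, per list, the 6 longest members, the 5 longest and 5 strongest without cover, the 5 longest covered whole, the 5 with most uncovered bases, the 5 genes with most members and members on listed genes. At most 2 unnamed genes are printed, and a few genes that the rule names are not reported here. Other minimum lengths, a stricter list, looser classes and subsets of peaks were tried. The matching code was checked on 1408 control long peaks that overlapped no other long peak on their strand. Copies of them were kept whole, cut, dropped or moved to the opposite strand, and 100% received the simulated class. Only copies on the same gene could cover, so this checks the assignment of classes and not the overlaps of real peaks.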

Additional observations from a re-analysis of the deposited data

How the results depend on the processing

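Of 54 recomputed values, 32 moved by less than the counting interval or, for counts, less than 1.5 times, 22 moved further, and none could change direction, since no test was made. A minimum of 400 bases gave 3455 control and 2547 *Wtap*-BKO long peaks. The control ones were covered in part in 72.0% and not covered in 8.08%, and the *Wtap*-BKO ones were covered whole in 36.5%, in part in 60.6% and not in 2.83%. With 1000 bases there were 296 and 214, covered in part in 80.4% and not in 1.69% of control peaks, and whole in 24.3%, in part in 75.7% and not in 0 of *Wtap*-BKO peaks. When only peaks of the other list with a false discovery rate under 1e-05 could cover, cover in part fell to 71.0% and 62.2%, and the share without cover was 9.61% and 5.27%. When 90% of the bases sufficed for whole cover and under 10% counted as none, whole cover was 38.8% and 56.9% and cover in part 57.1% and 42.1%. Under each alternative that gave the shares of both lists, control long peaks had the larger share without cover. Leaving out weak long peaks, long peaks shared with another gene of their list, or covering peaks of another gene kept every value near the reported one. Keeping the 10000 strongest peaks, and leaving out long peaks on an opposite-strand peak, were chosen after seeing the data and moved nothing further. The former kept 1437 and 1020 long peaks, nearly all of them, and so could not change their ratio. No paired analysis was possible because each genotype had 1 pooled sample, and for the same reason no replicate could be left out. Depth is unknown, so a deeper library in one genotype cannot be told apart from more or wider peaks.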

Other observations

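On transcripts of the mitochondrial genome, 3 of 12 *Wtap*-BKO peaks and 0 of 8 control peaks were long, where 5.58% and 7.98% of all peaks were. With so few peaks this difference was not tested. The *Wtap*-BKO peaks were on *mt-Nd4* (809 bases, fold enrichment 25, control cover of 631 bases), *mt-Nd5* (688 bases, 2.45, 509 bases) and *mt-Cytb* (616 bases, 2.02, 382 bases), which code for subunits of respiratory complexes I and III. The longest unspliced control peak on these transcripts was on *mt-Nd5* with 509 bases, and the *Wtap*-BKO peak covered it whole. In each list the false discovery rate of the peaks on *mt-Nd4* and *mt-Nd5* was given as 0. These genes were chosen after their values were seen.

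By chromosome, the share of *Wtap* flox/flox peaks that were long was 10.4% on chromosome 18, 10.1% on chromosome 8 and 4.57% on chromosome X. Over all control peaks it was 7.98%. In *Wtap*-BKO the same chromosomes had 6.23%, 5.85% and 3.87%, beside 5.58% of all peaks and 7.33% on chromosome 16.

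Some long peaks share reads or bases with others. On the same strand, 52 *Wtap* flox/flox and 33 *Wtap*-BKO long peaks overlapped a peak that their own list assigned to another gene identifier, and 130 and 67 overlapped a peak on the opposite strand. Counted once, the bases of the long peaks were 1230297 and 883833.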
